A study of Homo sapiens with 20 samples.

Results

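The proteins of the cytoplasmic ribosome are encoded by the ribosomal protein genes, of which 77 were described here among the 57820 genes counted. They were chosen by symbol alone: RPL or RPS followed by digits, with a final A or X where there is one, plus RPLP0, RPLP1, RPLP2 and RPSA, without pseudogenes. Of these, 46 belong to the large subunit and 31 to the small subunit. The filter on low counts was passed by 76, which were tested.

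A ribosome joins a small subunit, which reads the mRNA, to a large subunit, which forms the peptide bonds. Nearly all of its proteins are needed in matched amounts, and cells tend to raise or lower their genes together. Most of their mRNAs begin with a C followed by a run of pyrimidines, the terminal oligopyrimidine (TOP) tract. Through that tract the kinase mTOR and the RNA-binding protein LARP1 control how well they are translated and how stable they are.

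RNA was measured in T47D cells, an established line from a luminal breast cancer that carries oestrogen and progesterone receptors. Cells received an siRNA against BRG1 (si-BRG1), CBX3 (si-CBX3) or FOXA1 (si-FOXA1), or a control siRNA (si-control), and RNA was taken after 6 h of the synthetic progestin R5020 at 10 nM or at 0 h, before hormone, with 2 libraries in each of the 8 groups. All cells were starved of steroids and then of serum before hormone, per the labels, although the first si-CBX3 0 h library carries no protocol. A further 2 libraries came from cells without siRNA, 1 at 6 h and 1 at 0 h, and BRG1 binding was given as 1 list of ChIP-seq peaks at 30 min and 1 at 0 min. BRG1, the product of SMARCA4, is an ATPase that drives SWI/SNF chromatin remodelling complexes. CBX3 is the heterochromatin protein HP1 gamma, and FOXA1 is a pioneer transcription factor. All libraries are of 1 cell line, and the labels do not say whether replicates were separate cultures, so p-values measure the spread between these samples, which may be technical.

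The start of each mRNA is shown first because the TOP tract is what these genes are known to share. Below are 30 bases around the annotated start of 7 genes, from RefSeq on GRCh38.p14, read 5′ to 3′ on the strand of the gene, where base 13 is the annotated first base of the mRNA. Capitals mark the run of C and T that begins with a C at the start. RPS29, RPL34, RPS27A and RPL14 were among the genes lowered most by the knockdowns, RPLP0 had the highest mean CPM of the 77, RPL11 was not called lower in any knockdown, and RPL28 fell most with hormone under si-FOXA1.
RPS29: cgagcgcgcagctggcagcggtggttgttt
RPL34: ggcttttttcttCCTCTTCCggggacgttg
RPS27A: gcggcgttcttcCTTTTCgatccgccatct
RPL14: cgggtcttcttcCTTCTCgcctaacgccgc
RPLP0: cgggcgcgaggcCCTTCTCTCgccaggcgt
RPL11: aagctccgctttCTCTTCCTgctctccatc
RPL28: cccctcgccttcCTCTTTCCgtctcaggtc
On GRCh38.p14 these windows are chr14:49598693-49598722 (minus strand) for RPS29, chr4:108620564-108620593 (plus) for RPL34, chr2:55232676-55232705 (plus) for RPS27A, chr3:40457327-40457356 (plus) for RPL14, chr12:120201094-120201123 (minus) for RPLP0, chr1:23691794-23691823 (plus) for RPL11 and chr19:55385920-55385949 (plus) for RPL28. The RefSeq table lists more than 1 start for RPL34, RPS27A and RPL11, and the start shown is the one that holds the tract.

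A TOP start was searched as a C within 2 bases of an annotated start, followed by at least 4 bases that are all C or T, on the strand of the gene. The RefSeq table matched 62 of the 77 genes, and 50 of the 62 (80.6%) had such a start. The same search found one in 13.0% of all 27305 genes of the table and in 15.9% of the 12441 that were also tested here. The runs of C and T in the ribosomal protein genes were between 5 and 19 bases long, with a median of 8. A match describes the letters near an annotated start and not a mapped transcript end, and several genes have more than 1 annotated start, any of which could match.

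Total counts ran from 50017255 to 74374857 fragments per siRNA library, and no gene on the mitochondrial chromosome had any. The labels held for the targeted genes. SMARCA4 was at 4.99 and 5.90 CPM in si-BRG1 at 0 h, against 76.6 and 65.7 CPM in si-control. CBX3 was at 6.80 and 6.37 CPM in si-CBX3 at 0 h, against 242 and 266 CPM in si-control. FOXA1 was at 61.4 and 62.8 CPM in si-FOXA1 at 0 h, against 389 and 408 CPM in si-control. SMARCA4 was higher in the other knockdowns than in si-control, at 184 and 175 CPM in si-CBX3 and at 183 and 187 CPM in si-FOXA1. The 10 luminal markers (keratins, hormone receptors and others) were abundant in every group. Their summed level at 0 h was 12649 to 13403 CPM in si-BRG1, 13141 to 13489 in si-CBX3, 13117 to 13731 in si-FOXA1 and 12736 to 12748 in si-control. Single markers moved within these sums: under si-FOXA1, 6 of the 10 were called lower and 2 higher, with XBP1 at 646 and 656 CPM in si-FOXA1 against 2094 and 2106 CPM in si-control and KRT8 at 4397 and 4698 CPM in si-FOXA1 against 2447 and 2511 CPM in si-control. Under si-BRG1, 3 were called higher and 0 lower, and under si-CBX3, 5 higher and 1 lower. The 4 basal markers summed to 6.78 and 7.02 CPM in si-FOXA1 at 0 h. They summed to at most 1.78 CPM in every library of the other siRNAs and of si-control. Nearly all of the si-FOXA1 sum at 0 h was TP63, at 6.23 and 6.51 CPM. The basal keratins were low there: KRT5 at 0.0433 and 0.0761, KRT14 at 0.303 and 0.289, and KRT17 at 0.202 and 0.137 CPM. Over all 16 libraries the leukocyte markers PTPRC, CD3E and CD68 had a median of 0 CPM, and the 2 endothelial markers summed to at most 0.959 CPM and the fibroblast markers to between 21.6 and 58.8 CPM, nearly all of it COL1A1. The part of these markers in the results was not tested. Per the file headers the si-CBX3 and si-FOXA1 files were counted with 1 thread and the si-BRG1 and si-control files with 8, so for si-CBX3 and si-FOXA1 the siRNA and the counting run cannot be told apart, whereas si-BRG1 and si-control share their counting command.

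Ribosomal protein genes took a smaller part of every knockdown library than of any si-control library. Their share of counted fragments was 4.32% and 3.43% in si-BRG1 at 6 h, and 3.84% and 3.77% at 0 h. It was 3.85% and 3.61% in si-CBX3 at 6 h, and 3.53% and 3.25% at 0 h. It was 2.99% and 3.06% in si-FOXA1 at 6 h, and 3.35% and 3.55% at 0 h. In si-control it was 5.07% and 5.33% at 6 h, and 4.87% and 5.14% at 0 h. The 12 knockdown libraries and the 4 si-control libraries did not overlap. In bulk RNA, fewer cells of a kind and less RNA per cell cannot be told apart.

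**Figure D1:**
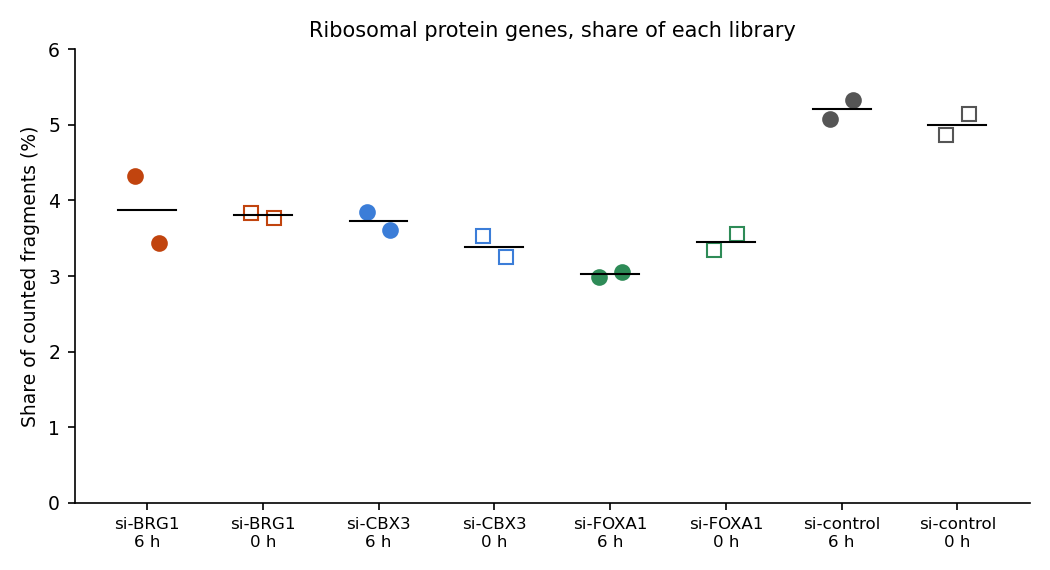
Share of all counted fragments (%) that fell on the 77 ribosomal protein genes, 1 point per library, with 6 h of R5020 (filled circles) left of 0 h (open squares) for each siRNA and a bar at the mean of the 2 libraries. All 12 knockdown libraries sit at or below 4.32%, and the 4 si-control libraries at or above 4.87%.

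Levels among the genes were compared per length, as CPM per kilobase of exon averaged over the 16 libraries. The length is that of all annotated exons of a gene together, not of its main mRNA. It was 946 bases for RPS27 and 8153 for RPL37, so the order also depends on the annotation. The highest were RPS18 at 691, RPS27 at 662 and RPL7A at 661 CPM per kilobase, parts of the small, small and large subunit. The lowest were RPS10 at 22.1, RPL17 at 10.8 and RPL36A at 0.255 CPM per kilobase. All 3 of the lowest share exon bases on the same strand with a readthrough gene: 28.9% of the exon bases of RPS10 lie in RPS10-NUDT3, 32.0% of those of RPL17 in RPL17-C18orf32 or small RNAs, and 8.48% of those of RPL36A in RPL36A-HNRNPH2. Their counts are therefore uncertain, and RPL36A had only 993 fragments in all. Named pseudogenes of these genes numbered 1577. Pseudogene fragments came to 14.6% of those of RPL41, 13.8% of those of RPS2, 35.4% of those of RPL17 and 229% of those of RPL36A.

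Each knockdown lowered nearly all ribosomal protein genes before hormone. Under si-BRG1, 72 of 76 were called lower and 0 higher at an adjusted p below 0.05, where 13.4% of all 18806 tested genes were called lower and 15.1% higher. Under si-CBX3, 70 were called lower and 1 higher, against 26% of all genes called lower and 28.1% called higher. Under si-FOXA1, 70 were called lower and 2 higher, against 33.5% of all genes called lower and 40% called higher. The median log2 fold change of the 76 was -0.47 under si-BRG1, -0.67 under si-CBX3 and -0.77 under si-FOXA1, or levels 1.38-fold, 1.59-fold and 1.71-fold lower than in si-control. The median of all genes tested was 0.03, 0.05 and 0.11 in the same comparisons. The knockdown libraries lay wholly below the si-control libraries for 76 of 76 genes under si-BRG1, 73 under si-CBX3 and 73 under si-FOXA1, where this held for 30.3%, 36.1% and 39.7% of all genes. The 3 comparisons use the same 2 si-control libraries. Without the second si-control 0 h library the si-BRG1 count was 47, all lower, with a median of -0.43, and without the second si-BRG1 library it was 48, all lower. With libraries scaled by total counts alone, the median of all genes under si-BRG1, si-CBX3 and si-FOXA1 was 0.11, 0.16 and 0.33, and that of the 76 was -0.39, -0.56 and -0.55.

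Of the 76 genes, 67 were called lower under all 3 siRNAs, 3 under 2 of them and 5 under 1, and RPL11 under none. At most 13.4% of all tested genes can be called lower under all 3, the share called lower under si-BRG1. Shares of all genes called lower under 2 or 1 were not counted. The 3 comparisons share the si-control libraries, so their calls are not independent. At 0 h all 6 knockdown libraries lay below both si-control libraries for 71 genes, where 17.3% of all tested genes did so. At 6 h the same held for 69 genes, against 14.9% of all. For 52 genes all 12 knockdown libraries lay below all 4 si-control libraries, against 4.92% of all.

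**Figure D2:**
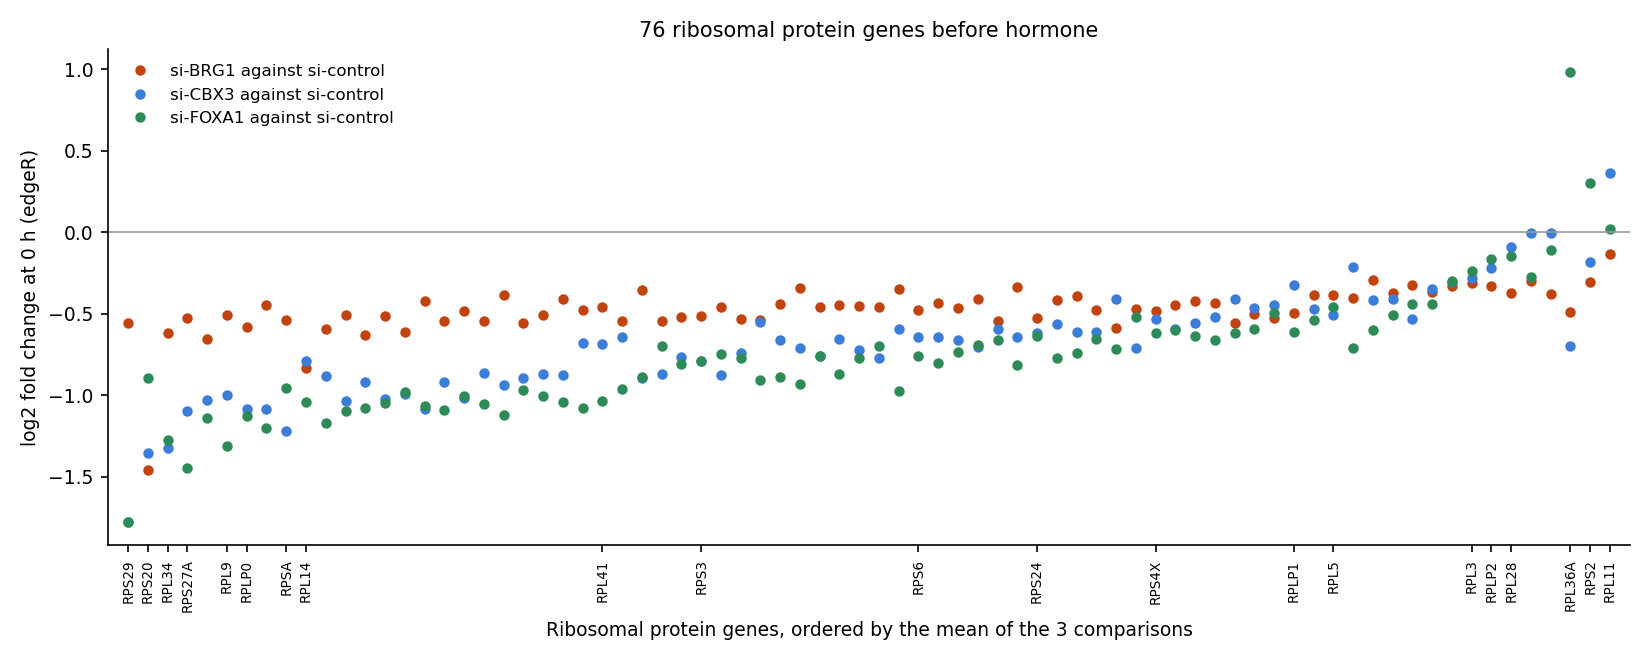
Log2 fold change at 0 h (edgeR) of each of the 76 ribosomal protein genes under si-BRG1, si-CBX3 and si-FOXA1 against si-control, ordered from left to right by the mean of the 3, with the names of some genes described in the text. RPS29 and RPS20 are at the left end, most points lie below 0, and RPL11 with values of -0.13, 0.36 and 0.02 stands at the right end.

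Among proteins of the small subunit, RPS20, near the head of the subunit, was lowered most under si-BRG1. It was at 319 and 299 CPM in si-BRG1 at 0 h, 362 and 301 CPM in si-CBX3, 435 and 482 CPM in si-FOXA1, and 842 and 859 CPM in si-control. Every knockdown library was below every si-control library, and si-BRG1 and si-CBX3 were lowest. The log2 fold change was -1.46 ± 0.13 (SE) under si-BRG1, 2.75-fold lower (adjusted p = 9.2e-07), and -1.36 ± 0.13 under si-CBX3 (adjusted p = 2.0e-07).

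RPS29 (ENSG00000213741.4, hg19 chr14:50043390-50065408), a small zinc-binding protein of the small subunit, was lowered most under both other siRNAs. It was at 80.1 and 52.6 CPM in si-CBX3 at 0 h, 60.8 and 72.2 CPM in si-FOXA1, 144 and 167 CPM in si-BRG1, and 210 and 246 CPM in si-control. Libraries of si-CBX3 and si-FOXA1 were lower than those of si-BRG1, which were themselves below si-control. The fall was 3.44-fold under si-CBX3 (log2 -1.78 ± 0.18, adjusted p = 3.2e-07), 3.43-fold under si-FOXA1 (log2 -1.78 ± 0.18, adjusted p = 1.1e-07) and 1.47-fold under si-BRG1 (log2 -0.55 ± 0.17, adjusted p = 0.023). The si-BRG1 call of RPS29 was lost without the first si-BRG1 library (-0.45, adjusted p = 0.17) or the second si-control library (-0.44, adjusted p = 0.16). Other genes cover 26.1% of its exon bases on the same strand.

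RPS27A (ENSG00000143947, hg19 chr2:55459039-55462989) is made as a fusion of ubiquitin with a small-subunit protein. It was at 254 and 188 CPM in si-CBX3 at 0 h, 168 and 180 CPM in si-FOXA1, 339 and 318 CPM in si-BRG1, and 476 and 472 CPM in si-control. No knockdown library reached si-control. It was 2.14-fold lower under si-CBX3, 2.72-fold lower under si-FOXA1 (log2 -1.44 ± 0.13, adjusted p = 2.3e-08) and 1.44-fold lower under si-BRG1.

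RPSA, a small-subunit protein that also serves as a laminin receptor, was at 298 and 258 CPM in si-CBX3 at 0 h, 323 and 344 CPM in si-FOXA1, 435 and 457 CPM in si-BRG1, and 593 and 701 CPM in si-control. Its log2 fold change was -1.22 ± 0.12 under si-CBX3, -0.95 ± 0.12 under si-FOXA1 and -0.54 ± 0.12 under si-BRG1, all called. RPS6, the substrate by which S6 kinase activity is usually read, fell by 0.48, 0.65 and 0.76 on the log2 scale under si-BRG1, si-CBX3 and si-FOXA1. RPS3, which lines the mRNA entry channel, fell by 0.52, 0.79 and 0.79 in the same order, and these 6 changes were all called.

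RPS2 was the small-subunit exception. It was at 536 and 504 CPM in si-BRG1 at 0 h, 567 and 565 CPM in si-CBX3, 772 and 816 CPM in si-FOXA1, and 600 and 687 CPM in si-control. The si-FOXA1 libraries were the highest and the si-BRG1 libraries the lowest. It was called higher under si-FOXA1 (log2 0.30 ± 0.11, adjusted p = 0.017) and lower under si-BRG1 (log2 -0.31 ± 0.11, adjusted p = 0.041), with -0.18 ± 0.11 under si-CBX3, not called. The si-FOXA1 call was lost without the first si-control 0 h library, at 0.15 and an adjusted p of 0.32, and without the second si-FOXA1 0 h library, at 0.27 and an adjusted p of 0.092. The si-BRG1 call was lost without either si-BRG1 library (-0.35 and -0.26) and without the second si-control library (-0.21). Small nucleolar RNA genes and an unnamed gene cover 25.6% of the exon bases of RPS2 on the same strand.

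In the large subunit the stalk proteins went in unequal steps. RPLP0 (ENSG00000089157, hg19 chr12:120634489-120639038), the base of the stalk and a common reference gene in quantitative PCR, was at 2169 and 2270 CPM in si-BRG1 at 0 h, 1629 and 1501 CPM in si-CBX3, 1478 and 1568 CPM in si-FOXA1, and 3040 and 3614 CPM in si-control. All 6 knockdown libraries were below si-control, with si-BRG1 nearest to it. RPLP0 fell by 0.58 on the log2 scale under si-BRG1 (adjusted p = 0.0014) and was 2.13-fold lower under si-CBX3 (adjusted p = 9.0e-07) and 2.18-fold lower under si-FOXA1 (adjusted p = 2.2e-07). RPLP1, which with RPLP2 forms the tip of the stalk, had log2 fold changes of -0.50 ± 0.11, -0.33 ± 0.11 and -0.61 ± 0.11 under si-BRG1, si-CBX3 and si-FOXA1, all called. Under si-CBX3 the RPLP1 value was -0.51 without the first si-CBX3 library, and -0.16 and no longer called without the second (adjusted p = 0.27). RPLP2 was called lower under si-BRG1 (-0.33 ± 0.10), and was at -0.22 ± 0.10 under si-CBX3 and -0.16 ± 0.10 under si-FOXA1, where it was not called. The RPLP2 call was lost without either si-BRG1 library or the second si-control library, at -0.32 to -0.35.

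RPL14 had the second largest fall of the 76 under si-BRG1. It was at 395 and 398 CPM in si-BRG1 at 0 h, 432 and 384 CPM in si-CBX3, 334 and 354 CPM in si-FOXA1, and 709 and 705 CPM in si-control. The 6 knockdown libraries lay close together, far below si-control. The log2 fold change was -0.83 ± 0.07 under si-BRG1, -0.79 ± 0.07 under si-CBX3 and -1.04 ± 0.07 under si-FOXA1. RPL34 fell by 0.62, 1.33 and 1.28 on the log2 scale under si-BRG1, si-CBX3 and si-FOXA1. Under si-BRG1, RPS27 (log2 -0.66 ± 0.15) and RPL31 (log2 -0.63 ± 0.12) complete the 5 largest falls, and under si-FOXA1, RPL9 (log2 -1.31 ± 0.12) and RPS15A (log2 -1.20 ± 0.13) do. RPL41, the smallest protein of the ribosome, was at 332 and 333 CPM in si-BRG1, 283 and 285 CPM in si-CBX3, 207 and 239 CPM in si-FOXA1, and 452 and 461 CPM in si-control at 0 h. Its log2 fold changes were -0.46 ± 0.13, -0.68 ± 0.13 and -1.04 ± 0.13, all called. RPL3, which reaches towards the peptidyl transferase centre, fell by 0.31, 0.28 and 0.24 on the log2 scale, each called. Leaving out 1 library ended the si-BRG1 call of RPL41 in 3 of 4 cases (-0.45 to -0.46), and that of RPL3 in 2 of 4 (-0.26 and -0.27), and the RPL3 call also without the first si-CBX3 library (-0.26) or the first si-FOXA1 library (-0.21).

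RPL5 and RPL11 bind the 5S ribosomal RNA together, and the same complex can restrain MDM2 and so stabilise p53. They did not move together. RPL5 was at 502 and 493 CPM in si-BRG1 at 0 h, 472 and 443 CPM in si-CBX3, 459 and 487 CPM in si-FOXA1, and 647 and 655 CPM in si-control, and was called lower under all 3 siRNAs (log2 -0.39 ± 0.07, -0.51 ± 0.07 and -0.46 ± 0.07). RPL11 (ENSG00000142676.8, hg19 chr1:24018269-24022915) was at 304 and 289 CPM in si-BRG1, 440 and 398 CPM in si-CBX3, 320 and 341 CPM in si-FOXA1, and 344 and 306 CPM in si-control. Only the si-CBX3 libraries lay above si-control, and the si-FOXA1 libraries fell between the 2 si-control libraries. RPL11 was called higher under si-CBX3 (log2 0.36 ± 0.08, adjusted p = 0.00080) and was at -0.13 ± 0.08 under si-BRG1 (adjusted p = 0.22) and 0.02 ± 0.08 under si-FOXA1 (adjusted p = 0.81). Scaled by total counts alone, RPL11 was called higher under si-FOXA1 too, at 0.24.

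RPL36A was called higher under si-FOXA1 (log2 0.98 ± 0.22, adjusted p = 0.00059), at 1.86 and 1.70 CPM in si-FOXA1 against 0.847 and 0.957 CPM in si-control at 0 h. With the fragments of its pseudogenes added the value turned to -0.62. Its direction therefore depends on which copies are counted.

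**Figure D3:**
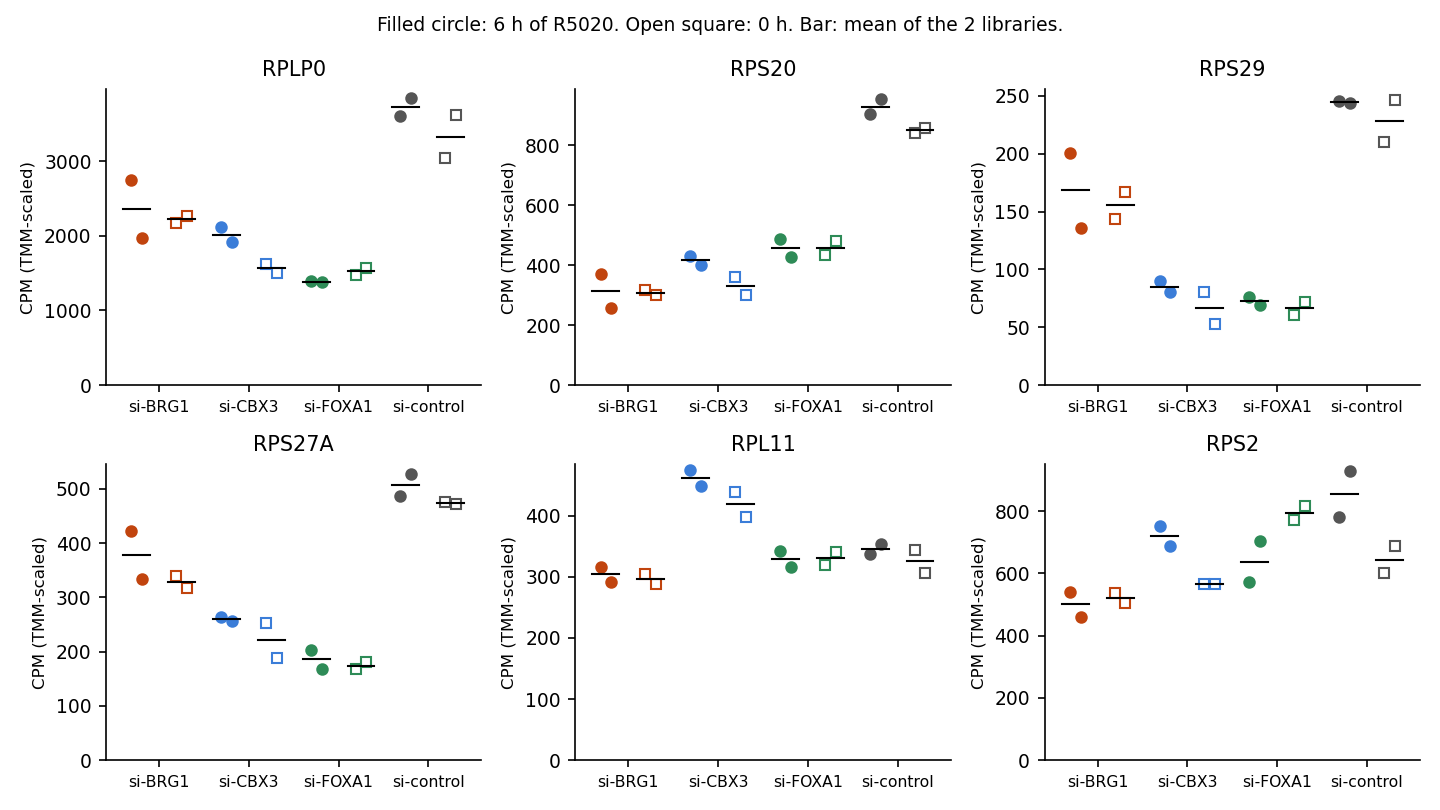
CPM scaled by TMM in every library for RPLP0, RPS20, RPS29, RPS27A, RPL11 and RPS2, with 6 h (filled circles) left of 0 h (open squares) for each siRNA and a bar at the mean of the 2 libraries. The knockdown libraries of the first 4 genes are all below si-control, RPL11 is highest in si-CBX3, and RPS2 at 0 h is highest in si-FOXA1.

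The small subunit had lower medians than the large subunit in each knockdown: -0.48 and -0.46 under si-BRG1, -0.83 and -0.63 under si-CBX3, and -0.89 and -0.71 under si-FOXA1. Among the 62 genes with a listed start, the 50 with a TOP start had a median of -0.48 under si-BRG1 and the 12 without one -0.37. Under si-CBX3 these medians were -0.68 and -0.62, and under si-FOXA1 -0.77 and -0.85, so the order of the 2 sets was not the same in all 3. These medians were not tested. Across the 76 genes, Spearman's rho between level per length and the log2 fold change was -0.01, 0.05 and 0.04 under the 3 siRNAs, a description over genes of the same libraries.

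In si-control cells, 6 h of R5020 raised few ribosomal protein genes past the test. Of 76, 5 were called higher and 0 lower, where 19.5% of all genes were called higher and 18.1% lower. The median log2 fold change was 0.13, against -0.02 for all genes, and 69 of the 76 values were above 0. The 6 h libraries lay wholly above the 0 h libraries for 53 genes, where 34% of all genes did so. RPS2 had the largest value. It was at 780 and 928 CPM at 6 h, against 600 and 687 CPM at 0 h, without overlap (log2 0.41 ± 0.11, adjusted p = 0.0061). It was at 0.29 without the first 0 h library and 0.27 without the second 6 h library, not called in either case. RPL13, RPS10, RPS15 and RPL8 were the others, at log2 0.36, 0.34, 0.32 and 0.32. The count was 0 without the first 0 h library or without the second 6 h library, 1 without the second 0 h library and 3 without the first 6 h library. Scaled by total counts alone, 1 was called higher and 2 lower.

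Under si-BRG1 the 6 h libraries of the pair differed from each other more than any other pair of replicates, with a chi-square of 51.8 per gene against 3.94 to 25.6 in the other groups. Of 76 genes, 2 were called higher with hormone and 0 lower, where 18.6% and 17.1% of all genes were, and the median was 0.09. The 6 h libraries lay wholly above the 0 h libraries for 8 genes, against 29.4% of all. RPS3A was at 497 and 375 CPM at 6 h, against 362 and 332 CPM at 0 h (log2 0.33 ± 0.11, adjusted p = 0.023). RPS3A was at 0.11 without the first 6 h library and 0.52 without the second. Without the first 6 h library 6 genes were called lower and 0 higher, with a median of -0.10, and without the second 6 h library 43 were called higher and 0 lower, with a median of 0.26. The count was 0 without the second 0 h library and 1 without the first. The direction of the hormone response of these genes under si-BRG1 therefore rests on which 6 h library is used.

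Under si-CBX3 hormone raised more of them. Of 76 genes, 28 were called higher and 1, RPL36A, lower, where 20.4% and 20.5% of all genes were, and the median was 0.25. The 6 h libraries lay wholly above the 0 h libraries for 70 genes, against 36.6% of all. RPL39 had the largest rise, at 60.5 and 54.5 CPM at 6 h, against 48.0 and 33.0 CPM at 0 h (log2 0.51 ± 0.14, adjusted p = 0.0092). RPS12 was at 323 and 302 CPM at 6 h, against 270 and 190 CPM at 0 h (log2 0.44 ± 0.12, adjusted p = 0.0057). In both genes the second 0 h library was the lowest of the 4. RPS21, RPS26 and RPLP1 rose by 0.44, 0.40 and 0.39 on the log2 scale. RPL36A was at a log2 fold change of -0.98 ± 0.33, at 0.167 and 0.386 CPM at 6 h against 0.564 and 0.545 CPM at 0 h, and the call was lost when its pseudogenes were added, at -0.09. The count was 0 without the second 0 h library and 1 without the first 6 h library, with medians of 0.17 and 0.24. Without the second 0 h library RPL39 was at 0.26 and RPS12 at 0.21, neither called. Scaled by total counts alone, 5 were called higher and 1 lower, and fitted on the si-CBX3 libraries alone 67 higher and 1 lower.

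Under si-FOXA1 the direction was downward. Of 76 genes, 0 were called higher with hormone and 21 lower, where 19.1% and 19.6% of all genes were, and the median was -0.19. The 6 h libraries lay wholly below the 0 h libraries for 52 genes, against 39.3% of all. RPL28, a large-subunit protein, was at 140 and 204 CPM at 6 h, against 241 and 266 CPM at 0 h, and both 6 h libraries were below both 0 h libraries (log2 -0.56 ± 0.13, adjusted p = 0.0023). RPL23A was at 249 and 311 CPM at 6 h, against 356 and 401 CPM at 0 h (log2 -0.44 ± 0.09, adjusted p = 0.00085). RPL29 and RPL18 fell by 0.42 and 0.39 on the log2 scale, and of the genes always described here, RPL3 and RPL5 fell by 0.35 and 0.23. Of the 21, 16 were large-subunit genes and 5 small-subunit genes. The count was 4 without the second 0 h library and 5 without the first 6 h library, all lower in both cases. Without the first 6 h library RPL28 was at -0.32 and RPL23A at -0.29, both still called, and RPL18 at -0.27, no longer called. RPL18 was also not called without the second 0 h library, nor was RPL5 (-0.20).

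**Figure D4:**
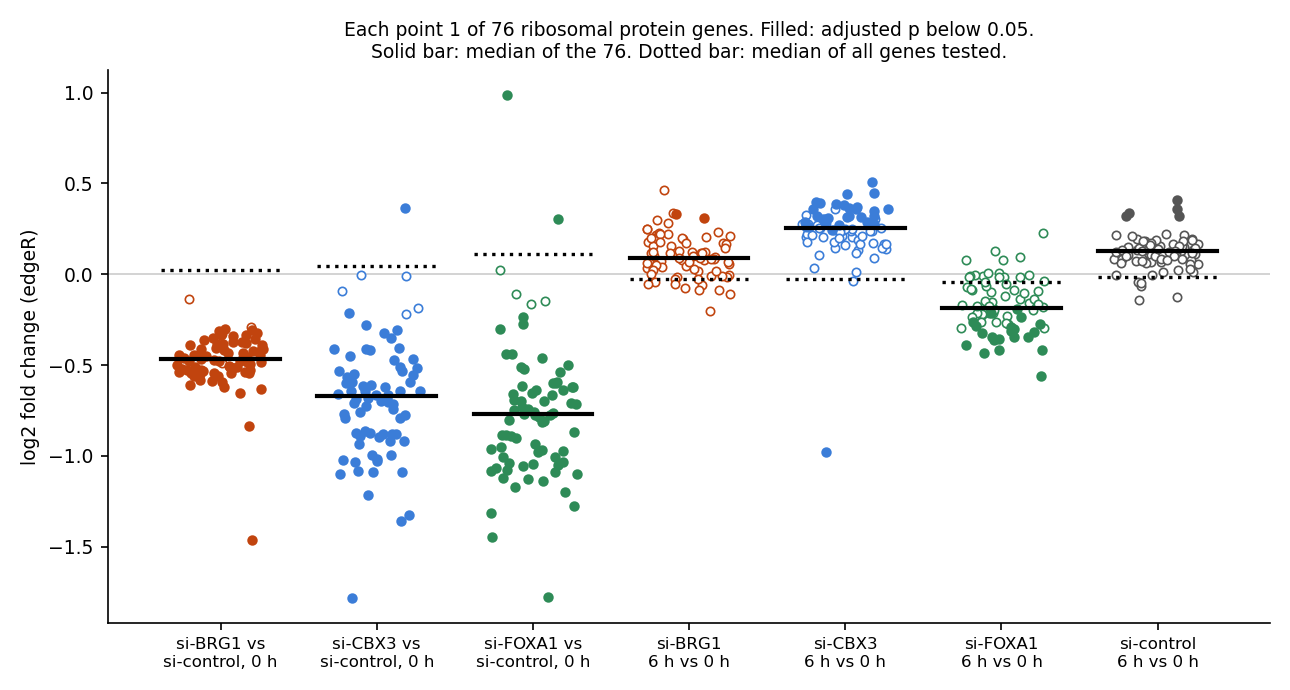
Log2 fold change (edgeR) of the 76 ribosomal protein genes in the 3 knockdowns against si-control at 0 h and in the hormone response under each siRNA, 1 point per gene, filled where the adjusted p is below 0.05. Solid bars mark the members' medians of -0.47, -0.67 and -0.77 in the knockdowns and 0.09, 0.25, -0.19 and 0.13 with hormone, and dotted bars the median of all genes tested.

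The hormone responses were then compared with each other by testing the difference from si-control. Under si-FOXA1, 0 of 76 genes had a higher response than in si-control and 21 a lower one, where 13% and 15.7% of all genes did, with a median difference of -0.30 against -0.01 for all genes. RPS2 had the largest difference, -0.73 ± 0.15 (adjusted p = 0.0019), followed by RPS15 at -0.68 ± 0.17 (adjusted p = 0.0066) and RPS10 at -0.60 ± 0.18 (adjusted p = 0.017). RPS15 was at 70.6 and 92.1 CPM at 6 h, against 101 and 108 CPM at 0 h, under si-FOXA1, and at 222 and 237 CPM at 6 h, against 175 and 193 CPM at 0 h, under si-control. RPL3 and RPL41 were also among the 21, at -0.48 ± 0.12 and -0.51 ± 0.18. RPS2, RPS15 and RPL3 kept their call without any 1 of the 8 libraries, RPS10 lost it without 4 of them (-0.44 to -0.61) and RPL41 without 6 of them (-0.38 to -0.56). The count was 4 without the second si-FOXA1 0 h library, 3 without the first si-FOXA1 6 h library, 4 without the first si-control 0 h library, 5 without the second si-control 6 h library and 8 without the first, all lower. Under total-count scaling it was 12, all lower.

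For si-BRG1 and si-CBX3 the edgeR test called 0 of 76 differences from si-control. Of all genes, 1.49% had a called higher and 3.72% a called lower response under si-BRG1, and 4.63% and 4.36% under si-CBX3. An unadjusted p below 0.05 was reached by 4 genes under si-BRG1 and 8 under si-CBX3. The share of all tested genes below that threshold was not counted, so these counts are not read as a result. DESeq2 called 1 lower under si-BRG1 and 2 higher under si-CBX3. Without the first si-BRG1 6 h library 11 were called lower, and without the second 1 was called higher. Without the first si-CBX3 0 h library 5 were called higher. More genes were called higher with hormone under si-CBX3 than in si-control, but no edgeR test of the difference itself was called.

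In cells without siRNA each time is 1 library, so there is no test. The 77 genes had a median log2 ratio of 6 h to 0 h of 0.08 on the log2(RPKM + 1) scale, with 57.1% above 0. The median was 0.04 over 17398 genes tested in the siRNA libraries, 56.4% of them above 0, and 0.13 over the 11810 genes with at least 1 RPKM in both libraries, as all 77 had. RPL15 was at 405 RPKM at 6 h, against 239 RPKM at 0 h, a log2 ratio of 0.76. RPL13 was at 1716 RPKM at 6 h, against 1114 RPKM at 0 h (log2 0.62). RPL13A was at 93.3 RPKM at 6 h, against 153 RPKM at 0 h (log2 -0.71), and RPS25 and RPL39 had log2 ratios of -0.69 and -0.54. The members took 3.11% of estimated reads at 6 h and 2.82% at 0 h. These files were quantified in another way than the siRNA files, and levels were not compared between them. Over the 76 genes Spearman's rho was 0.52 between CPM per kilobase and RPKM at 0 h.

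BRG1 peaks were counted near the starts of the 77 genes. At 30 min of R5020, 4 of 77 genes (5.19%, 95% Wilson interval 2.04 to 12.6) had a peak within 5 kb of the start, where 10.3% of tested genes had one, a share inside that interval. They were RPL7, RPSA, RPS24 and RPS4X. The RPSA peak (hg19 chr3:39447635-39448964) had the authors' score of 75.7 and a centre 119 bp downstream of the start, that of RPS24 (hg19 chr10:79793630-79795214) 70.9 at 904 bp, and that of RPS4X (hg19 chrX:71496629-71497212) 60.2 at 229 bp. The peak near RPL7 had the highest of these scores, 174, above 94.7% of the list. At 0 min 0 of 77 had a peak, and 1.89% of tested genes had one. A count of 0 allows a share of up to 3.90% by the limit of 3 counts, and of up to 4.75% by the Wilson interval, both above the share of tested genes. The lists hold 6180 peaks at 30 min and 2288 at 0 min, each from 1 library, and were not tested against each other. Intervals cover counting error only. All 4 genes were called lower under all 3 siRNAs, as 67 of the 76 were, with log2 fold changes under si-BRG1 of -0.52 for RPL7, -0.54 for RPSA, -0.53 for RPS24 and -0.48 for RPS4X.

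Other genes of protein synthesis were read beside them. FAU encodes a further ribosomal protein, as a fusion with a ubiquitin-like protein, outside the symbol rule. FAU fell by 0.33, 0.62 and 0.93 on the log2 scale under si-BRG1, si-CBX3 and si-FOXA1. Of 17 tested translation factors and other genes with TOP mRNAs, 12, 10 and 10 were called lower and 0, 3 and 4 higher under si-BRG1, si-CBX3 and si-FOXA1, with medians of -0.32, -0.39 and -0.18. Shares of all genes were 13.4%, 26% and 33.5% lower and 15.1%, 28.1% and 40% higher. EEF1B2, an exchange factor for elongation factor 1A, fell by 0.55, 0.97 and 1.50, and EIF3E, a subunit of initiation factor 3, by 0.48 under si-BRG1 and 0.72 under si-CBX3. TPT1 fell by 1.69 under si-FOXA1, where PABPC1, the poly(A)-binding protein, rose by 0.82.

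Nuclear genes of 3 other large complexes were read in the same comparisons, where 13.4%, 26% and 33.5% of all genes were called lower under si-BRG1, si-CBX3 and si-FOXA1. Of 75 tested mitochondrial ribosomal protein genes, 37, 52 and 63 were called lower and 2, 4 and 4 higher under the 3 siRNAs, with medians of -0.24, -0.39 and -0.88. Of 63 respiratory chain genes, 26, 40 and 58 were called lower and 2, 5 and 2 higher, with medians of -0.24, -0.46 and -1.04. Of 36 proteasome genes, 10, 23 and 34 were called lower and 3, 1 and 0 higher, with medians of -0.15, -0.27 and -0.72. Beside these, the ribosomal protein genes had the lower median under si-BRG1 (-0.47) and si-CBX3 (-0.67), whereas under si-FOXA1 the respiratory chain and mitochondrial ribosome medians were below that of the ribosomal protein genes (-0.77). MRPS35 fell by 0.44 under si-BRG1 and 1.32 under si-FOXA1, and ATP5PO, a subunit of ATP synthase, by 0.38, 0.72 and 1.51 across the 3. These lists were not tested against each other.

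The ribosome assembly genes act in making and processing ribosomal RNA and in joining it with the proteins. At 0 h, of 39 tested, 15, 27 and 14 were called lower and 5, 6 and 15 higher under si-BRG1, si-CBX3 and si-FOXA1, with medians of -0.17, -0.30 and 0.07. Over all genes the shares were 13.4%, 26% and 33.5% lower and 15.1%, 28.1% and 40% higher. NIP7 fell by 0.45 and 1.11 under si-BRG1 and si-CBX3, while NOLC1 rose by 1.02, 1.27 and 1.74 across the 3. With hormone, 24 were called higher and 1 lower under si-BRG1, 27 and 3 under si-CBX3, 0 and 21 under si-FOXA1, and 23 and 1 in si-control. In the same order, 18.6% and 17.1%, 20.4% and 20.5%, 19.1% and 19.6%, and 19.5% and 18.1% of all genes were. NOP16, a nucleolar protein of large-subunit assembly, rose by 0.85 under si-BRG1, 1.31 under si-CBX3 and 0.93 in si-control. The response under si-FOXA1 differed from that in si-control for 28 of the 39, all lower, with a median difference of -0.59. It was called lower for 15.7% of all genes and higher for 13%. Among genes that act on TOP mRNAs or on ribosome synthesis, MYC rose by 1.47 under si-CBX3 and 2.88 under si-FOXA1. MYC, a known activator of ribosomal genes, was at 16.1 and 14.8 CPM in si-BRG1 at 0 h, against 17.7 and 16.2 CPM in si-control. LARP4 fell by 0.35 under si-BRG1 and 1.28 under si-FOXA1. LARP1 was at 277 and 221 CPM in si-control at 0 h. In si-BRG1 it was at 316 and 327 CPM, in si-CBX3 at 355 and 347 CPM and in si-FOXA1 at 421 and 418 CPM. Of the 19 such regulators tested, 1, 8 and 9 were called lower and 4, 7 and 7 higher in the 3 knockdowns.

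**Figure D5:**
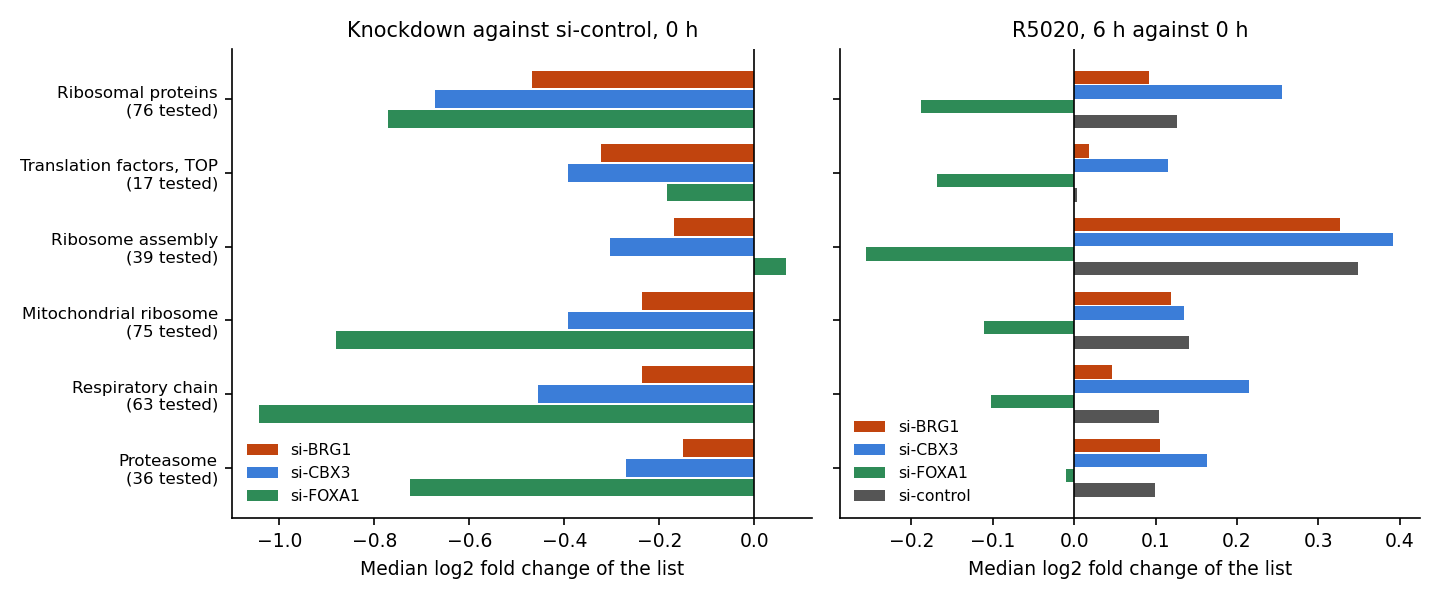
Median log2 fold change (edgeR) of 6 gene lists in the knockdowns against si-control at 0 h (left) and in the hormone response under each siRNA (right), with the number of genes tested beside each name. The ribosomal protein medians are -0.47, -0.67 and -0.77 at left, and at right the ribosome assembly genes have medians of 0.33, 0.39, -0.26 and 0.35 under si-BRG1, si-CBX3, si-FOXA1 and si-control.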

How the data were processed

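The authors deposited, for each siRNA library, raw counts of fragments per gene, made with featureCounts 1.4.6-p2 in reverse-stranded mode on GENCODE v19 models of hg19, per the file headers. Per the submitters' processing notes, the tools also include Trimmomatic and STAR, whose versions are not given in the sources used. The files without siRNA hold estimated reads and RPKM per transcript, as deposited, by a tool the sources do not state, and were summed per gene. Each deposited peak carries the authors' score, and those notes list Bowtie 1.0.0 and HOMER.

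Symbols were matched for 51996 of 57820 genes. Genes were kept by filterByExpr (18806), scaled by TMM and fitted with edgeR 4.0.16 (R 4.3.3) with a mean per group, leaving 8 residual degrees of freedom. All 10 comparisons came from that fit, by two-sided quasi-likelihood tests with Benjamini-Hochberg adjustment over all genes, and a call is an adjusted p below 0.05. CPM are scaled by TMM, and fold changes carry standard errors (SE). DESeq2 1.42.0 was an alternative. The fit was tested on simulated data. Peaks were assigned within 5 kb of the gene start.

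The members, gene lists and tests were chosen with earlier results of these data known. Genes named were 11 fixed members and the siRNA targets, up to 5 called members per direction and comparison with non-overlapping groups, up to 3 for differences, the 3 highest and lowest per length, up to 4 of each other list by p, the extremes without siRNA and members with a peak. RPS24, RPS4X and the genes shown for their start sequence fall under the peak or call rules. Some genes that the rule picks are not reported here.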

Additional observations from a re-analysis of the deposited data

Results flagged for a closer look

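The response to R5020 differed between si-FOXA1 and si-control for 21 of the 76 ribosomal protein genes, all lower under si-FOXA1, by edgeR's test of the difference itself. Of all tested genes, 15.7% had a called lower and 13% a called higher response. Of 75 mitochondrial ribosomal protein genes, 31 had a called lower and 3 a called higher response, with a median difference of -0.31. Of 63 respiratory chain genes 13 were called lower and 1 higher, and of 36 proteasome genes 6 and 0. The median difference of the 76 was -0.30, and -0.36 to -0.22 when 1 library was left out. The 3 with the largest differences were RPS2 at -0.73 (log2, si-FOXA1 minus si-control), RPS15 at -0.68 and RPS10 at -0.60. Their hormone responses were -0.32, -0.36 and -0.26 under si-FOXA1, against 0.41, 0.32 and 0.34 under si-control. RPS10 shares exon bases with a readthrough gene and lost its call in 4 of the 8 fits that each left out 1 library.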

How the results depend on the processing

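Each count is of called members, higher and lower together. Knockdown counts stayed near 72, 71 and 72 (61 to 75) under every alternative other than leaving out a library; leaving out 1 library gave 47 to 70 for si-BRG1, 64 to 71 for si-CBX3 and 68 to 72 for si-FOXA1. Hormone counts moved more. In si-control, 5 became 3 with total-count scaling, with most calls then lower, 9 without the low-count filter, and 0 to 3 leaving out 1 library. Under si-BRG1, 2 became 1 with total counts, 4 with DESeq2, 19 without the filter, 0 with only the groups compared, and 0 to 43 leaving out 1 library (median -0.10 to 0.26). Under si-CBX3, 29 became 6 with total counts, 59 without the filter, 68 with only the groups compared, and 0 to 30. Under si-FOXA1, 21 became 36 without the filter, and 4 to 21. For differences, si-BRG1 gave 0, 1 with DESeq2, 3 without the filter (median 0.012) and 0 to 11 (median -0.24 to 0.17), si-CBX3 gave 0, 2 with DESeq2, 7 without the filter, 1 with only the groups compared and 0 to 5, and si-FOXA1 gave 21, 12 with total counts, 37 without the filter and 3 to 22. Replicate numbers are not stated to pair libraries. With the replicate block the counts were 2, 28, 19 and 4 for hormone under si-BRG1, under si-CBX3, under si-FOXA1 and in si-control, 69, 71 and 72 for the knockdowns, and 0, 0 and 16 for the differences; same-numbered libraries at 6 h and 0 h deviated with correlations of -0.05 to 0.24. Values that turned sign were RPL36A under si-FOXA1 with pseudogenes added (-0.62), RPLP2 under si-FOXA1 with total counts (0.055), and RPL11 under si-FOXA1, which was at 0.02 and reached 0.24 with total counts, with DESeq2 or its size factors (-0.020 in both), without the filter (-0.050), with only the groups compared (-0.039) and leaving out 1 library (-0.10 to 0.064). The median without siRNA was 0.12 when libraries were scaled by total estimated reads. The causes were not tested.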

Other observations

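Paralogues of ribosomal protein genes, which lie outside the symbol rule, were read separately from their parents. Of 7 tested, 2, 4 and 3 were called lower and 1, 1 and 1 higher in the knockdowns of BRG1, CBX3 and FOXA1 before hormone. Among all genes 13.4%, 26% and 33.5% were called lower and 15.1%, 28.1% and 40% higher. RPL36AL fell by 0.38 under si-BRG1 and 0.86 under si-FOXA1, RPL39L by 0.51 under si-CBX3 and 1.03 under si-FOXA1, and RPS27L, a p53 target, by 0.34, 0.37 and 0.70 under the 3 siRNAs. RPL7L1 rose by 0.49 under si-CBX3 and 0.43 under si-FOXA1. With hormone, RPL26L1 rose by 0.29 under si-BRG1, 0.31 under si-CBX3 and 0.43 in si-control, and its response under si-FOXA1 differed from that in si-control by -0.54.

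Other lists with hormone gave the following counts. Of all genes tested, 18.6%, 20.4%, 19.1% and 19.5% were called higher under si-BRG1, si-CBX3, si-FOXA1 and in si-control. Called lower were 17.1%, 20.5%, 19.6% and 18.1% of all genes. Of 75 mitochondrial ribosomal protein genes, 22, 22, 6 and 24 were called higher and 0, 2, 12 and 1 lower under si-BRG1, si-CBX3, si-FOXA1 and in si-control. MRPS5 rose in each of the 4, by 0.65, 0.49, 0.50 and 0.62. Of 63 respiratory chain genes, 1, 23, 1 and 9 were called higher and 3, 0, 7 and 1 lower. Of 36 proteasome genes, 8, 7, 2 and 7 were called higher and 1, 0, 0 and 0 lower. Of the 17 translation genes with TOP mRNAs, 2, 1, 1 and 1 were called higher and 1, 2, 7 and 2 lower. EIF4B, an activator of the helicase eIF4A, fell by 0.20, 0.25, 0.21 and 0.26 in the 4 comparisons. Without siRNA the assembly genes had a median log2 ratio of 6 h to 0 h of 0.42, with 31 of 36 above 0, and the mitochondrial ribosomal protein genes one of 0.21, with no test.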
